A study of Mus musculus with 8 samples.

Results

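The genes described here are 38 mouse genes with parent-of-origin expression, chosen by name and grouped because Mirg, a noncoding RNA of the Dlk1-Dio3 cluster on chromosome 12, was already known to be among the lowest changes in this comparison. Of the 38, 30 had at least 1 probe set annotated to that gene alone, out of 17098 genes tested. Each gene was read by its brightest probe set, judged by the mean of the 8 arrays, and for the Dlk1-Dio3 genes every probe set is given. The values of Mirg are therefore a description and carry no test. Igf2r and Mest had only a probe set shared with another gene, and Dio3, H19, Peg10, Nnat, Asb4 and Zrsr1 had none in the annotation used here and were not analysed here.

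The study measured mouse embryonic stem (ES) cells on a C57BL/6 background, HPRT deficient and between passages 19 and 22, on Affymetrix arrays with 1 array per sample. The treated group received 2.5 µM cisplatin, a platinum drug that crosslinks DNA, for 8 h (4 arrays), and the control group received the solvent DMSO for the same time (4 arrays), so the HPRT deficiency and the culture history are shared by both groups. Per the labels' protocols, cells had been passaged on feeder cells and then on gelatin, and the RNA was labelled from its 3′ end. In each group the replicates are numbered 3 to 6. Whether they are separate cultures is not stated in the labels, so the p-values rest on a spread that may be technical.

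In an imprinted gene, marks set in the egg or sperm, mostly DNA methylation, leave 1 parental copy active. Imprinted genes lie in clusters, each under a control region, and many regulate fetal growth, placental function and behaviour. In the Dlk1-Dio3 cluster the maternal copy gives the noncoding RNAs Meg3, Rian and Mirg in that order along the chromosome, which carry or host box C/D small nucleolar RNAs and microRNAs, while the paternal copy gives the proteins Dlk1, Rtl1 and Dio3. In mouse ES and induced pluripotent stem cells, silencing of this cluster is known to mark lines of reduced developmental potential. The arrays read both parental copies together, so nothing here concerns which copy was used.

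Mirg stands for "microRNA-containing gene", and the microRNAs that lie within it are its best known products. The RefSeq microRNA table (build GRCm38.p6) holds 10 hairpins with 19 mature sequences inside Mirg, 3 hairpins inside Rian and 1 inside Meg3, and 57 hairpins in all between the start of Meg3 and the end of Mirg. The arrays did not measure these microRNAs. The sequences below show what the Mirg transcript carries, with the seed (bases 2 to 8, the part that pairs with target RNAs) in capitals and all written 5′ to 3′.
mmu-miR-453: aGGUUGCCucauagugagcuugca
mmu-miR-496a-5p: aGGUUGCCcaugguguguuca
mmu-miR-409-5p: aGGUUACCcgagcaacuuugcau
mmu-miR-410-5p: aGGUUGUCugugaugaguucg
mmu-miR-154-3p: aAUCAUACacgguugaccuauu
mmu-miR-369-3p: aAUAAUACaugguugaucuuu
mmu-miR-410-3p: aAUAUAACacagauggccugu
mmu-miR-377-3p: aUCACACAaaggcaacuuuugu
Only miR-453 and miR-496a-5p share a seed among the 19, and no other mature sequence in the table has it. The seeds of miR-409-5p and miR-410-5p begin with the same 4 bases as that pair, and those of miR-154-3p, miR-369-3p and miR-410-3p all begin with AU.

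The first annotated starts of the 3 noncoding RNAs differ in sequence, shown from RefSeq as the 300 bases around the start on the plus strand of GRCm38.p6. Capitals mark the motif TGCCGC, the core bound by the imprint-protecting protein ZFP57, on either strand, and the cAMP response element TGACGTCA. The windows are chr12:109540746-109541045 for Meg3, chr12:109603695-109603994 for Rian and chr12:109734731-109735030 for Mirg.
Meg3: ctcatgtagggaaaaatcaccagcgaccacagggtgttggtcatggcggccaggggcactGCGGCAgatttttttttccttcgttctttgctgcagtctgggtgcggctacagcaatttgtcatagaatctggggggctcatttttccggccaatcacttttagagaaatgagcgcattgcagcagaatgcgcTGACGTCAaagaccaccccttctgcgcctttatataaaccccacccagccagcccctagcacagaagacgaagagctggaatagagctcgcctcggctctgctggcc
Rian: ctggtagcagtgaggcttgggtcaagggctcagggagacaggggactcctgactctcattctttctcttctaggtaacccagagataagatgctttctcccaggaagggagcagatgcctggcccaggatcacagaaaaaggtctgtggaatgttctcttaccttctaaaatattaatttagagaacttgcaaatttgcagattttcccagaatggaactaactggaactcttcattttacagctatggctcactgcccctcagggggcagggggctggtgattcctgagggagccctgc
Mirg: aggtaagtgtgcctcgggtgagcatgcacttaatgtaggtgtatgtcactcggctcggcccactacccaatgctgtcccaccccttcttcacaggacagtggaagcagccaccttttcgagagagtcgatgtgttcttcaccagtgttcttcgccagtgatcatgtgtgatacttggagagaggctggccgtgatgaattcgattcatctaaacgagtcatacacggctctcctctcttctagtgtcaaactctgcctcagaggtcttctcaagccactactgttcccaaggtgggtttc
The Meg3 window held 1 TGCCGC, 1 TGACGTCA and 13 CpG dinucleotides, but a second annotated Meg3 start, with the window chr12:109545148-109545447, held neither motif and 1 CpG. The Rian window held neither motif and no CpG, and the Mirg window held neither motif and 10 CpG and overlapped the hairpins of Mir668 and Mir485. Over all 32851 promoter windows in the table, 11.6% held TGCCGC and 1.79% held TGACGTCA, with a median of 7 CpG. Of the 49 windows of the 32 imprinted genes with an entry, some of them overlapping, 14 (28.6%) held TGCCGC and 4 held TGACGTCA, 1 each for Meg3 and Zdbf2 and 1 element shared by the facing windows of Peg3 and Usp29, with a median of 15 CpG. Matches to the 2 motifs cannot overlap each other, and a match is a description of the letters only.

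The probe sets of the noncoding RNAs of the Dlk1-Dio3 cluster did not all have the same sign of change. On a log2 scale, Mirg lay at 6.36, 6.01, 5.89 and 6.05 on the cisplatin arrays, against 7.43, 7.24, 7.33 and 7.36 on the control arrays. The groups were separate, and cisplatin arrays averaged 6.08 ± 0.20, against 7.34 ± 0.08 for control arrays (SD, n = 4 each), a log2 change of -1.26 ± 0.09 (SE) or 2.40-fold lower, which is the value Mirg was chosen for. In bulk samples such as these, fewer cells of a type and less RNA per cell cannot be told apart.

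**Figure D1:**
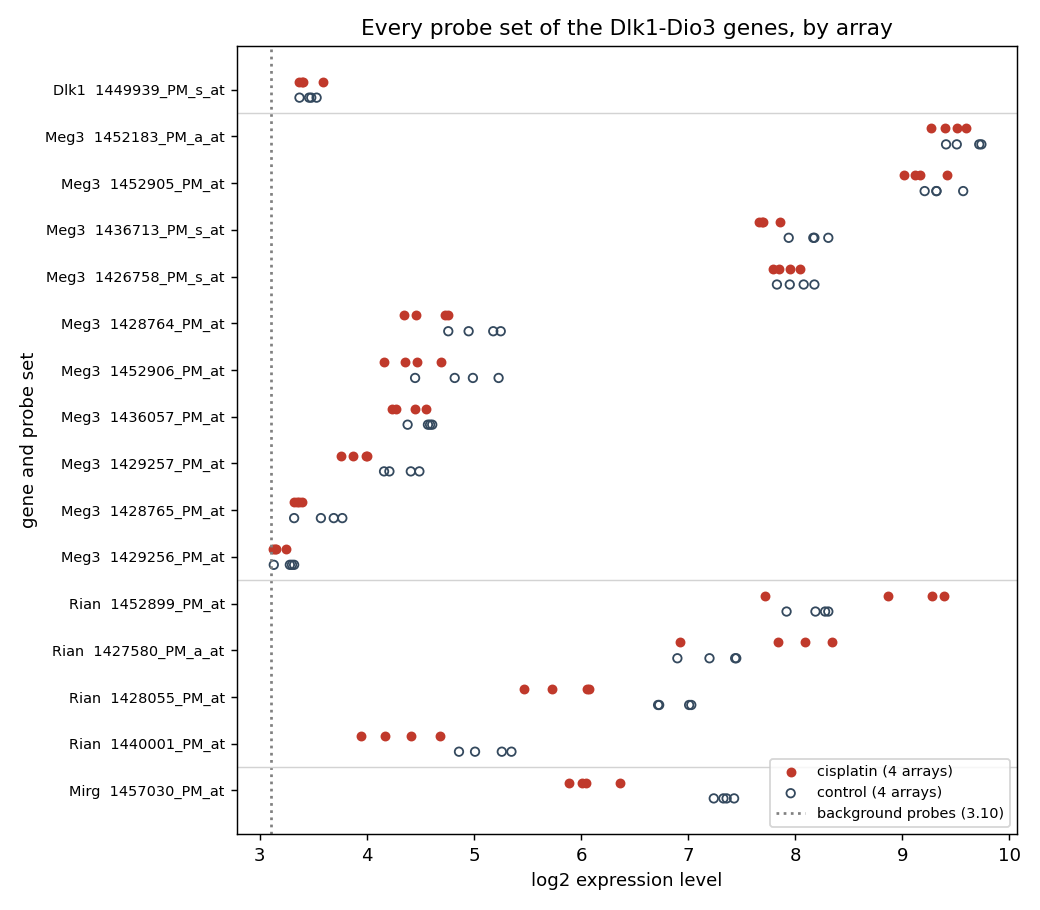
Log2 expression level (x axis) on each array for all 16 probe sets of Dlk1, Meg3, Rian and Mirg, with cisplatin as filled red points above control as open points and the level of background probes (3.10) dotted. Mirg and the probe sets 1428055_PM_at and 1440001_PM_at of Rian lie lower on all cisplatin arrays, while the probe sets 1452899_PM_at and 1427580_PM_a_at of Rian lie higher on 3 of 4 cisplatin arrays.

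Rian, which hosts small nucleolar RNAs, was read by 4 probe sets that did not move alike. Probe set 1428055_PM_at was at 6.06, 5.47, 5.73 and 6.07 with cisplatin, against 7.01, 6.73, 7.03 and 6.72 in the controls, with no overlap. It fell by 1.04 ± 0.14 on the log2 scale (limma over all 45037 probe sets other than controls, adjusted p = 0.000615). Probe set 1440001_PM_at was at 4.41, 3.94, 4.17 and 4.68 with cisplatin, against 5.26, 4.86, 5.35 and 5.01 in the controls, also with no overlap, a change of -0.82 ± 0.15 (adjusted p = 0.00546), a call that an ordinary t statistic does not give (adjusted p = 0.0556). The brighter probe sets showed the opposite sign with a wide spread. Probe set 1452899_PM_at, which stands for the gene, was at 8.87, 9.39, 7.72 and 9.28 with cisplatin, against 8.31, 8.19, 8.28 and 7.92 in the controls, and 1427580_PM_a_at was at 7.84, 8.34, 6.92 and 8.09 with cisplatin, against 7.45, 7.20, 7.44 and 6.90 in the controls. Their changes of 0.64 ± 0.30 and 0.55 ± 0.26 did not pass the test (adjusted p = 0.218 and 0.224), with 95% intervals of -0.02 to 1.30 and -0.02 to 1.11. Cisplatin replicate 5 was the only treated array not above all controls, on both probe sets. Without it the changes were 1.01 and 0.84 and passed the test (adjusted p = 0.00181 and 0.00806). The annotation does not say which part of Rian each probe set reads, so no single direction is given for the gene, and the mean of its 4 probe sets was at -0.17 (adjusted p = 0.576 over all genes).

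Meg3, a noncoding RNA with growth-restraining activity, was read by 10 probe sets, all with a negative change, from -0.46 to -0.10. Of the 10, 3 passed the test, and these were the same 3 whose groups did not overlap, though for 1428764_PM_at the nearest arrays of both groups round to 4.76. Probe set 1436713_PM_s_at was at 7.86, 7.66, 7.70 and 7.69 with cisplatin, against 8.31, 8.18, 8.17 and 7.94 in the controls, a change of -0.42 ± 0.08 (limma, adjusted p = 0.00728). The dimmer 1429257_PM_at changed by -0.41 ± 0.09 (adjusted p = 0.0118) and 1428764_PM_at by -0.46 ± 0.12 (adjusted p = 0.0331). The last call did not hold when cisplatin replicate 3 or 4, or control replicate 3, 5 or 6, was left out (adjusted p up to 0.0935). With an ordinary t statistic neither of these dimmer probe sets passed (adjusted p = 0.0561 and 0.129). The brightest probe set, 1452183_PM_a_at, was at 9.60, 9.27, 9.51 and 9.40 with cisplatin, against 9.74, 9.51, 9.72 and 9.41 in the controls. These groups overlap, and the change of -0.15 ± 0.10 had a 95% interval of -0.36 to 0.06 (adjusted p = 0.385). Averaging the 10 probe sets gave -0.27 (adjusted p = 0.0257 over all genes).

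Dlk1, a Notch-like membrane protein of fetal tissues, was close to background in both groups. Its levels were 3.59, 3.37, 3.39 and 3.40 with cisplatin, against 3.48, 3.37, 3.53 and 3.46 in the controls, where the background probes lay at 3.10. The change of -0.02 ± 0.07 did not pass the test (adjusted p = 0.873 over all genes). Apart from Mirg, 5 of the 15 probe sets of the cluster passed the test as lower and none as higher. Of the 15 changes 13 were negative, 10 of them those of Meg3. Over all probe sets 6.25% were lower and 6.35% higher by the same rule. The groups did not overlap for 5 of the 15, against 18.3% of all probe sets. Of the 15, 10 read Meg3, 4 Rian and 1 Dlk1. They are repeated reads of the same genes on the same arrays and not independent, so these counts describe probe sets and give no direction for the cluster. Dio3os, a noncoding RNA beside Dio3, was at 3.45 ± 0.07 with cisplatin and 3.51 ± 0.03 in the controls (SD, n = 4; adjusted p = 0.568 by limma over all probe sets).

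The genes on both sides of the cluster were read by 1 probe set each, with p adjusted over all genes. Read in that way, Meg3, Rian and Dlk1 did not pass the test either (limma, adjusted p = 0.329, 0.194 and 0.873). The counts below therefore cannot be set against those of the single probe sets above, and do not show where a change ends. Of the 10 nearest measured genes on each side in the RefSeq gene order, none of 20 passed the test in either direction (limma; 2 had an unadjusted p under 0.05), against 7.69% of all genes lower and 11.6% higher, and the median change was -0.01. The smallest adjusted p was that of Yy1, which encodes a zinc finger regulator, at -0.17 ± 0.05 (adjusted p = 0.0503). Wdr20 was next at -0.19 ± 0.07 (adjusted p = 0.0977), followed by the mitochondrial carrier gene Slc25a29 at 0.21 ± 0.10 (adjusted p = 0.204) and the genome maintenance gene Cinp at 0.12 ± 0.06 (adjusted p = 0.220). Of the 20, 7 lay below background in both groups. Leaving out control replicate 3 gave 1 lower call, and other settings gave up to 3.

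**Figure D2:**
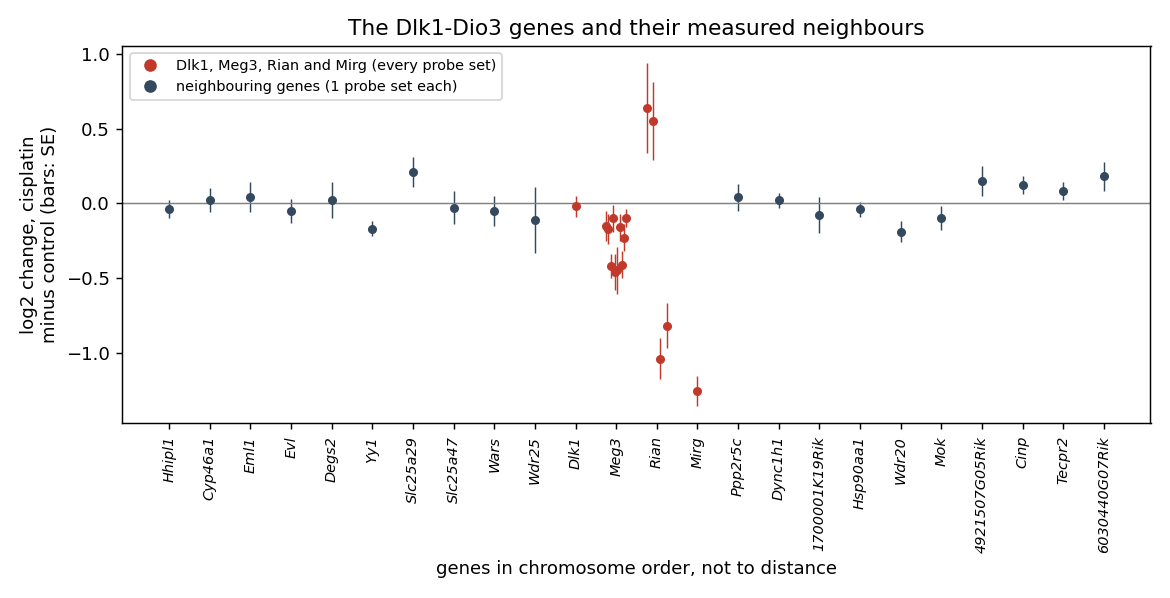
Log2 change with its SE (y axis) for every probe set of Dlk1, Meg3, Rian and Mirg (red) and for the 10 nearest measured genes on each side (dark, 1 probe set each), in chromosome order. The neighbours lie between -0.19 and 0.21, and Rian has probe sets on both sides of 0.

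Across the 30 imprinted genes, 4 fell and 1 rose in the cisplatin group past the threshold of 0.05 (limma, p adjusted over all 17098 genes). This is 16.7% of them, close to the 19.3% of all genes that were called (7.69% lower and 11.6% higher). Mirg is among the 4 although it was chosen for its fall, and without it 3 of 29 were lower and 1 higher. The median change over the 30 was -0.01, against 0.01 over all genes, with 16 negative and 14 positive changes. The groups did not overlap for 7 of the 30, against 24.3% of all genes. Besides Mirg the lower genes were Ppp1r9a, Ube3a and Trappc9, and the higher gene was Impact. Of the 30, 5 lay below background in both groups, namely Peg12, Usp29, Kcnq1, Gnas and Zim1, and none of these passed. The level of Gnas rests on 1 probe set, and a further one not annotated to Gnas alone was not analysed. Each array was also centred on its median over all 17098 genes, which lowers every change by 0.13. Then 7 of the 30 were lower and 0 higher, where 23% of all genes were lower and 6.36% higher.

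**Figure D3:**
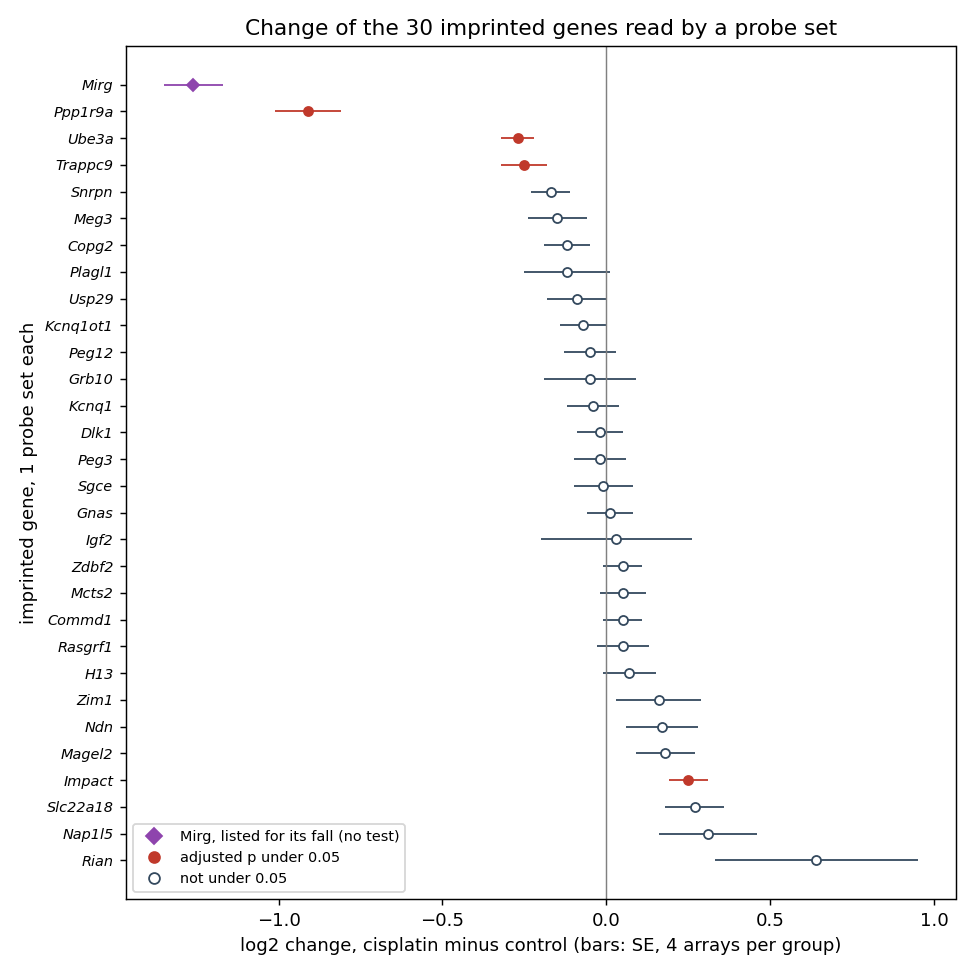
Log2 change, cisplatin minus control, with its SE (x axis) for the 30 imprinted genes, ordered by change. Red points passed the test, open points did not, and the purple diamond is Mirg, which was chosen for its fall. Most changes lie within 0.3 of 0.

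Ppp1r9a encodes neurabin, a scaffold that binds actin and protein phosphatase 1, and lies in the imprinted cluster of Peg10 and Sgce, where the maternal copy is favoured in some tissues. It was at 5.23, 5.57, 5.52 and 5.32 with cisplatin, against 6.23, 6.52, 6.19 and 6.33 in the controls. All treated arrays were lower, and the change was -0.91 ± 0.10, or 1.88-fold lower (limma, adjusted p = 0.00018). A second probe set, 1456072_PM_at, was at 4.83 ± 0.13 with cisplatin and 5.42 ± 0.19 in the controls (SD, n = 4), with no overlap. It changed by -0.59 ± 0.10 (adjusted p = 0.00325 over all probe sets). The 2 dimmer probe sets were at -0.27 and -0.21 and did not pass (adjusted p = 0.246 and 0.101). The fall of Ppp1r9a kept its call without any single array, between -0.96 and -0.84. Sgce, which encodes epsilon-sarcoglycan of the muscle membrane complex, lies in the same cluster and was at -0.01 ± 0.09 (adjusted p = 0.955). Its other probe set, 1443518_PM_at, near background, was at 0.24 ± 0.07 (adjusted p = 0.0641 over all probe sets), and passed where the brighter one was left out as able to match several transcripts (adjusted p = 0.0483).

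Ube3a, the ubiquitin ligase lost in Angelman syndrome and imprinted in neurons, was at 9.61, 9.70, 9.61 and 9.69 with cisplatin, against 9.95, 9.94, 9.96 and 9.85 in the controls. The groups were separate, and the gene fell by 0.27 ± 0.05 on the log2 scale (limma, adjusted p = 0.00537). Its other probe sets were at -0.40 ± 0.07 (adjusted p = 0.00484) and -0.27 ± 0.10 (adjusted p = 0.109) over all probe sets. Snrpn, which encodes the splicing protein SmN, lies in the same cluster and was at 9.19, 9.15, 9.14 and 9.04 with cisplatin, against 9.37, 9.24, 9.39 and 9.20 in the controls. These arrays did not overlap, yet the change of -0.17 ± 0.06 did not pass (adjusted p = 0.0876), on a probe set that can match several transcripts. The probe set without that marking, 1415895_PM_at, was at -0.24 ± 0.07 (adjusted p = 0.0556 over all probe sets), and 1432096_PM_at, near background, at -0.38 ± 0.06 (adjusted p = 0.00284). Averaging the 3 gave -0.26 (adjusted p = 0.00655 over all genes). A further 4 probe sets listed for Snrpn and 1 for Ube3a are shared with other genes and were not analysed.

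The other genes of the Snrpn cluster did not pass. Ndn, which encodes the growth-restraining protein necdin, was at 6.64, 6.73, 7.04 and 7.06 with cisplatin, against 6.54, 6.63, 6.89 and 6.73 in the controls, a change of 0.17 ± 0.11 (adjusted p = 0.352). Its relative Magel2, a partner of ubiquitin ligases, was near background at 3.38 ± 0.19 with cisplatin and 3.20 ± 0.07 in the controls (SD, n = 4). The change of 0.18 ± 0.09 did not pass (limma, adjusted p = 0.228), but passed without cisplatin replicate 3 at 0.27 (adjusted p = 0.0234). Peg12 was below background at 2.71 ± 0.14 with cisplatin and 2.77 ± 0.09 in the controls (SD, n = 4).

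Trappc9, a subunit of a vesicle tethering complex with a maternal bias in brain, was at 5.20, 5.18, 5.16 and 5.18 with cisplatin, against 5.34, 5.61, 5.45 and 5.33 in the controls. The groups did not overlap, and the change was -0.25 ± 0.07 (limma, adjusted p = 0.0270). Leaving out cisplatin replicate 4, 5 or 6, or control replicate 4 or 5, ended the call (adjusted p between 0.0529 and 0.0667). The remaining 2 probe sets of Trappc9 lay below background.

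Impact, which encodes an inhibitor of the stress kinase GCN2 and is paternally expressed in mouse, was the only higher gene. It was at 9.77, 9.63, 9.73 and 9.77 with cisplatin, against 9.52, 9.44, 9.57 and 9.36 in the controls. All treated arrays were above all controls, with a change of 0.25 ± 0.06 or 1.19-fold (limma, adjusted p = 0.0207). It did not pass when cisplatin replicate 3, 5 or 6, or control replicate 4, was left out (adjusted p between 0.0501 and 0.0559), nor after centring, at 0.12 (adjusted p = 0.193). Slc22a18, an organic cation transporter gene of the Kcnq1 cluster, was at 3.96, 3.81, 3.87 and 4.07 with cisplatin, against 3.44, 3.76, 3.65 and 3.76 in the controls. These values do not overlap, but the change of 0.27 ± 0.09 narrowly missed the threshold (adjusted p = 0.0526). A second probe set, 1417809_PM_at, rose by 0.43 ± 0.12 (adjusted p = 0.0370 over all probe sets), and the mean of both passed at 0.35 (adjusted p = 0.00608).

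**Figure D4:**
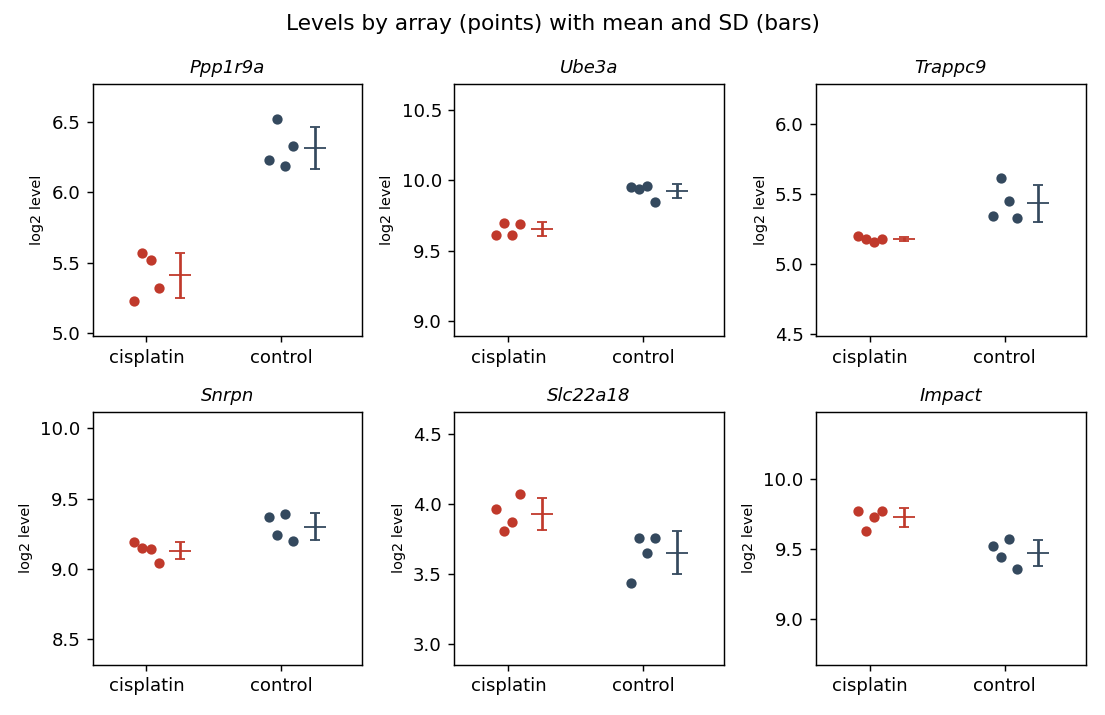
Log2 level (y axis, the same span in every panel) by array for Ppp1r9a, Ube3a, Trappc9, Snrpn, Slc22a18 and Impact, with cisplatin left of control and mean ± SD beside the points. The groups do not overlap in any panel, and the distance is largest for Ppp1r9a, at -0.91.

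The remaining growth regulators did not pass. Igf2, the fetal growth factor, was at 6.25, 7.22, 6.91 and 7.10 with cisplatin, against 6.37, 7.21, 6.71 and 7.06 in the controls. Its spread between replicates was wide in both groups, but the replicate numbers ranked in the same order in both. The 95% interval of the change ran from -0.48 to 0.54, and it takes no account of the replicate number. Grb10, an adaptor that restrains insulin signalling, was at 9.25 ± 0.17 with cisplatin and 9.29 ± 0.28 in the controls (SD, n = 4). Plagl1, a zinc finger factor that induces cell cycle arrest, was at 6.71 ± 0.17 with cisplatin and 6.83 ± 0.26 in the controls, a change of -0.12 ± 0.13 (limma, adjusted p = 0.606). Peg3, a zinc finger factor linked to cell death, was at 7.19 ± 0.08 with cisplatin and 7.21 ± 0.15 in the controls (adjusted p = 0.927 by limma).

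Zdbf2, Commd1, a copper and NF-kappaB regulator, and H13, a signal peptide peptidase, were expressed, with changes of 0.05, 0.05 and 0.07 that did not pass. Mcts2, a retrocopy of the translation factor gene Mcts1 inside H13, was at 0.05, and its probes were not checked against the parent gene. Copg2, a coat protein of transport vesicles, was at -0.12 ± 0.07 (limma, adjusted p = 0.247), and the probe set shared by Copg2 and Mest, an alpha/beta hydrolase gene, was at 9.77 ± 0.12 with cisplatin and 9.70 ± 0.06 in the controls (SD, n = 4). Nap1l5, a retrocopy of a nucleosome assembly gene, was near background at 3.59 with cisplatin and 3.28 in the controls, a change of 0.31 ± 0.15 (adjusted p = 0.208). Rasgrf1, a Ras exchange factor gene, at 3.31 with cisplatin and 3.25 in the controls, was near background. Kcnq1ot1, the long antisense RNA that silences the Kcnq1 cluster, was at 5.92 ± 0.05 with cisplatin and 5.99 ± 0.12 in the controls, and none of its 6 probe sets passed. The 5 genes below background and the shared probe set of Igf2r and Airn, at 2.92 with cisplatin and 2.89 in the controls, give no usable comparison.

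By the parental copy usually active, 4 of 12 maternally expressed genes with a probe set were lower and none higher, and 0 of 16 paternally expressed genes were lower and 1 higher, against 7.69% of all genes lower and 11.6% higher. Medians were -0.08 for the maternal and 0.01 for the paternal genes. Without Mirg, which was chosen for its fall, 3 of 11 maternal genes were lower, with a median of -0.04. The maternal bias of Ppp1r9a, Ube3a and Trappc9 is known from other tissues than ES cells, so these counts describe labels and not the copies used here.

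Gene length correlated negatively with the change over the imprinted genes and over all genes, though Mirg, the lowest of the imprinted genes, is short. The spans in the RefSeq annotation (GRCm38.p6) are 263 kb for Ppp1r9a, 472 kb for Trappc9 and 82.1 kb for Ube3a, but 14.5 kb for Mirg and 38.3 kb for Impact. Of the 9 imprinted genes over 100 kb, 2 were lower and none higher, with a median of -0.09. The 9 include Kcnq1 and Usp29, which lay below background in both groups. Of all 2124 genes over 100 kb, 26.9% were lower, also with a median of -0.09, against 4.96% of the shorter genes. Of the genes over 100 kb that were above background in a group, 40% were lower, with a median of -0.2. Across the 30 genes, Mirg included, the change correlated with log length at r = -0.24 (Spearman -0.47), and across 16935 genes at -0.23 (Spearman -0.25). These genes share the same arrays and are not independent replicates. The part of length in the changes was not tested.

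**Figure D5:**
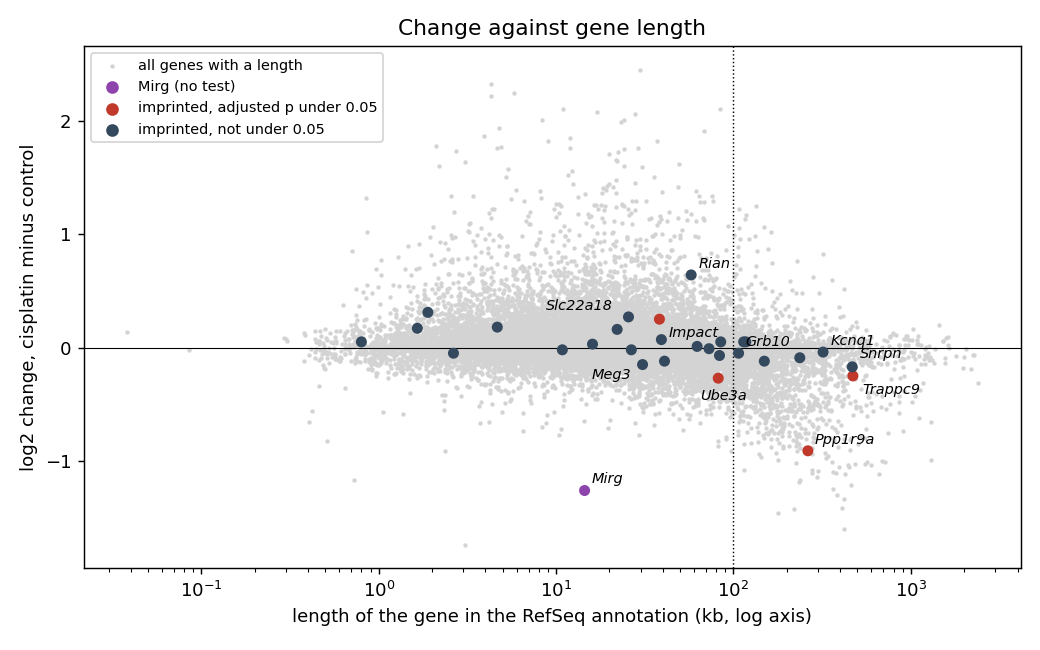
Log2 change, cisplatin minus control (y axis), against gene length in kb on a log axis for all genes with a length (grey) and the 30 imprinted genes (red where the test was passed, dark where not, purple for Mirg). Ppp1r9a and Trappc9 lie right of the dotted line at 100 kb, and Mirg, at 14.5 kb, lies at -1.26.

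Genes that set or keep imprints were measured in 23 of 27 cases, and 7 were lower (30.4%, against 7.69% of all genes) and none higher (against 11.6%), with a median of -0.14. None of the 23 lay below background in both groups, and of all genes above background in a group 10.9% were lower. The lower count among the 23 depends on the setting: it was 11 without dim genes, 13 with an intensity trend in the variance and 17 after centring. Arid4b, which encodes a chromatin protein that takes part in imprint control in mouse, fell by 0.56 ± 0.06 on the log2 scale (limma, adjusted p = 0.000198). Smchd1, a chromatin protein of the inactive X chromosome and of imprinted clusters, changed by -0.39 ± 0.06 (adjusted p = 0.0019), and Ehmt1, a histone H3 lysine methyltransferase gene, by -0.39 ± 0.06 (adjusted p = 0.00222). Ezh2, the methyltransferase of Polycomb, changed by -0.31 ± 0.05 (adjusted p = 0.0028). The first 3 of these genes are over 100 kb long, at 136, 131 and 129 kb. Ezh2, at 65 kb, and the other lower genes of the list are shorter than 100 kb, and not every gene over 100 kb in the list was lower. The part of length in these changes was not tested.

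A further 41 imprinted genes outside the 38 were listed, of which 31 were measured. Of these, 6 were higher (19.4%, against 11.6% of all genes) and 3 lower (9.68%, against 7.69%), with a median of 0.00. The higher count was 3 of 25 without probe sets that can match several transcripts and 3 of 31 with an ordinary t statistic. Ampd3, an adenosine monophosphate deaminase gene, rose by 0.86 ± 0.10 and Cd81, a tetraspanin gene, by 0.59 ± 0.07 (limma, adjusted p = 0.000276 for both). Cobl, an actin nucleator gene beside Grb10, fell by 0.84 ± 0.06 (adjusted p = 3.65e-05), and Sfmbt2, a Polycomb-related gene, by 0.82 ± 0.08 (adjusted p = 0.0001). Gab1, the third lower gene and named after its values were seen, was at -0.27 ± 0.05 (adjusted p = 0.00481).

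The cells carried their labelled markers. All 13 measured ES cell markers were above background. Of these, 8 were lower with cisplatin (61.5%, against 7.69% of all genes and 10.9% of genes above background in a group) and none higher. The lower markers were led by Esrrb at -0.55 ± 0.07 (limma, adjusted p = 0.000498), Klf4 at -0.40 ± 0.07 (adjusted p = 0.00331), Sall4 at -0.33 ± 0.06 (adjusted p = 0.00433) and Zfp42 at -0.34 ± 0.06 (adjusted p = 0.00501). Pou5f1 was at -0.04 ± 0.06 (adjusted p = 0.674), Nanog at -0.25 ± 0.06 (adjusted p = 0.0210), and Hprt between 4.69 and 5.03 with cisplatin and between 4.21 and 4.99 in the controls. The labels do not say how HPRT was lost, so that level checks nothing. Of 20 fibroblast and feeder markers, 3 were higher (15%, against 11.6% of all genes) and none lower, Mmp2 at 0.60 ± 0.08 (adjusted p = 0.000605), Thy1 at 0.61 ± 0.15 (adjusted p = 0.0176) and Fbln2, below background, at 0.20 ± 0.05 (adjusted p = 0.0270), while Loxl1 was at 0.58 ± 0.20 (adjusted p = 0.0785). The mean over this list ran from 3.94 to 4.25 on the cisplatin arrays and from 3.92 to 4.14 on the control arrays, and 10 of the 20 lay below background in both groups, Col1a2, Pdgfra and Pdgfrb among them. The other 10 included Vim at 10.78 with cisplatin and 10.86 in the controls, Acta2 at 8.58 with cisplatin and 8.43 in the controls, and Col5a1 at 5.78 with cisplatin and 5.97 in the controls. These 6 markers are named as examples chosen after their values were seen. The part of these markers in the changes of the imprinted genes was not tested.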

How the data were processed

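RNA from 4 cisplatin-treated and 4 DMSO-treated ES cell samples was measured on 1 array each. The deposited values are log2 expression levels in a table of 45141 probe sets, 104 of them controls; the submitters' processing notes name RMA and limma without versions. Column medians ran from 3.35 to 3.38, and the number of arrays limits the precision. In the platform annotation 28898 probe sets had 1 gene, 551 several and 15588 none listed. Symbols were updated by Entrez identifier through RefSeq (GRCm38.p6), which held 16937 of 17098 genes.

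Groups come from the sample titles. The comparison used limma 3.58.1 in R 4.3.3 (lmFit, eBayes, group as the only term), with Benjamini-Hochberg adjustment over the 17098 genes, or over the 45037 probe sets where a probe set is named, and a threshold of 0.05. The fit was tested on simulated data. No filter on dim genes was applied. Background is the level of the array's GC-rich background probes (24 of 25 bases). Changes are cisplatin minus control ± SE, and the median SE was 0.08. The members and lists were chosen with earlier results of these data known. Named genes are all members, the 4 smallest p-values of each other list, and Hprt, Pou5f1 and Nanog; Gab1 and 6 fibroblast markers were named outside this rule, after their values were seen. The Actb 3′ minus 5′ difference averaged 0.53 on cisplatin arrays and 0.54 on control arrays (exact permutation test, two-sided, p = 0.429, adjusted 0.543). Arrays correlated at 0.997 to 0.998 within groups. Alternatives covered probe set choice, dim genes, normalization, centring, the variance model, a replicate block and each array left out. Figures were drawn with matplotlib 3.10.9.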

Additional observations from a re-analysis of the deposited data

Results flagged for a closer look

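Of 84 groups of 4 arrays examined, one for each group of each imprinted gene and each further Dlk1-Dio3 probe set, 4 held an array far from the other 3 by Dixon's test, and chance flags about 1 in 20. Dlk1 was at 3.59 on cisplatin replicate 3, against 3.37 to 3.40 on the other cisplatin arrays. Control replicate 6 was the low array for the other three: Ube3a at 9.85, against 9.94 to 9.96, Zdbf2 at 8.05, against 8.25 to 8.29, and Mcts2 at 9.59, against 9.87 to 9.92 on the other control arrays. Without control replicate 6, Ube3a changed by -0.30 and passed the test.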

How the results depend on the processing

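The count of 4 lower imprinted genes became 7 after centring, which added Snrpn, Copg2 and Kcnq1ot1 (adjusted p = 0.00793, 0.0146 and 0.0436), and was 3 to 4 with each array left out. The single higher gene became 2 of 30 with the most variable probe set, with the mean of the probe sets and with the replicate block. The higher count was 2 of 25 without dim genes, 3 of 26 without probe sets whose names end in s, x or a, and 0 after centring. With arrays left out it was 0 to 1, at 0 without cisplatin replicate 6 or control replicate 4. The median of -0.01 moved to -0.14 after centring and stayed between -0.03 and 0.01 with arrays left out. Over all genes, higher genes were 60.2% of calls and 21.7% after centring. Sgce turned to 0.24 without the multi-transcript probe sets (adjusted p = 0.0483), and Nap1l5 passed with the replicate block (adjusted p = 0.042). Deviations of same-numbered arrays correlated at r = 0.20, 0.18, 0.20 and 0.06, against -0.17 to 0.11 for other numbers, and 7 of 8 arrays correlated best with their own number, a hint from the data and not the design. As 1 pair was under 0.1, the numbers were not taken to pair the samples. The block changed no other call of an imprinted gene or Dlk1-Dio3 probe set. Trappc9 lost its call with the mean of the probe sets, an intensity trend or an ordinary t statistic (adjusted p = 0.579, 0.0651 and 0.0522). For the further lists, chosen after seeing the data, lower imprint regulators numbered 11 without dim genes, 13 with an intensity trend, 17 after centring and 6 to 7 with arrays left out; further imprinted genes were 3 higher without multi-transcript probe sets or with an ordinary t statistic and 7 lower after centring; fibroblast markers were 2 lower after centring and 1 to 4 higher with arrays left out, at 1 without control replicate 3; neighbours were 1 higher with the most variable probe set, 1 lower with the mean of the probe sets, without dim genes or with an ordinary t statistic, 2 with an intensity trend and 3 after centring, and 0 to 1 with arrays left out. The causes were not tested. Signal near background limits Dlk1, Magel2, Nap1l5, Rasgrf1, Gnas, Kcnq1, Usp29, Peg12 and Zim1.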
